A study of Homo sapiens with 18 samples.

Results

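The effect of ΔNp53:WTp53 was set against the effect of a tethered WTp53 construct, each measured as the change from wild-type p53 (WTp53) in its own set of arrays. In ΔNp53:WTp53, full-length p53 is paired with ΔNp53, an isoform that lacks the N-terminus. By their titles, 12 of the 18 arrays of the series hold the 4 groups compared: a first set with ΔNp53:WTp53 and its WTp53 (experiments 0, 4, 5), and a second set with tethered WTp53 and its WTp53 (experiments d, e, f), at 3 arrays per group. The other 6 arrays, empty vector in both sets, helped to estimate the spread within a set and gave the responses to WTp53 itself. All groups were NCI-H1299, a non-small cell lung carcinoma line without p53, transiently transfected with plasmids (pIRES-2EGFP) that carry a green fluorescent protein gene. Cells with that fluorescence were collected by sorting, and RNA was taken 40 hours after transfection for Affymetrix Gene arrays. The data thus describe forced expression in 1 cell line. The labels give experiments 0, 4 and 5 as independent transfections and call d, e and f controls without saying whether they were independent, so p-values of the second set measure only the spread between its arrays. The transfection field of the tethered arrays names ΔNp53:WTp53, against their titles and descriptions, and every statement on the tethered construct rests on the titles. What the tethered p53 is joined to is not given in the sources used here.

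p53 is a transcription factor that binds DNA as a tetramer and activates genes of cell cycle arrest, apoptosis, DNA repair and its own feedback control. ΔNp53 lacks the first transactivation domain, keeps the part that forms tetramers, and can therefore assemble with full-length p53. Genes of mitosis fall after p53 activation largely through p21, encoded by CDKN1A, and the DREAM repressor complex, which binds promoter elements called CHR. Many of these promoters also hold CCAAT boxes, which the activator NF-Y binds.

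Values are log2 intensities that the authors normalized with RMA separately in each set, so levels were not compared between the sets. An effect is the log2 difference between a construct and WTp53 of the same set, and the difference of effects is the effect of ΔNp53:WTp53 minus that of the tethered construct. A gene is said to have risen, fallen or been called when its limma adjusted p was under 0.05 over 18417 genes, and errors are standard errors of the fit with n = 3 arrays per group. Replicates varied most with ΔNp53:WTp53: the median standard deviation of a gene was 0.151 there, 0.109 with WTp53 of the first set, and 0.069 and 0.049 with tethered WTp53 and WTp53 of the second. Experiment 0 stood apart within ΔNp53:WTp53, with a G2/M median of −0.24 against −1.18 and −1.54 in experiments 4 and 5. The deposited scales also differ. The response to WTp53 (WTp53 minus vector) was 1.84 times as large in the first set by total least squares over genes. Of 9 measured carcinoma line markers, 4 were above the array median in all 12 arrays and 3 (KRT19, EPCAM and CDH1) below it in all 12. Of 9 leukocyte, 10 fibroblast and endothelial and 9 differentiated lung epithelium markers, 6, 9 and 8 were below it in all 12. The leukocyte markers CD68 and TYROBP were above it in all 12. By limma 0 of these markers were called in the difference of effects.

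Of 449 genes that ΔNp53:WTp53 changed relative to WTp53, 245 were changed by the tethered construct in the same direction and 16 in the opposite one. With all 18 arrays in one fit, 633 of 2693 were changed in the same direction, and at a fold of at least 1.5 30 of 270, so the share depends on the fit and the threshold. ΔNp53:WTp53 raised 287 genes (1.56% of those tested) and lowered 162 (0.88%). The tethered construct raised 2739 (14.9%) and lowered 3231 (17.5%), in arrays with a smaller spread: the median standard error of an effect was 0.06 in the second set and 0.11 in the first. Changes of at least 2-fold were called for 64 genes with ΔNp53:WTp53 and 30 with the tethered construct, and changes of at least 1.5-fold for 270 and 337, on scales that differ between the sets. Both raised 154 genes (0.836%) and both lowered 91 (0.494%). These 245 genes are 54.6% of the 449 genes ΔNp53:WTp53 changed and 4.1% of the 5970 the tethered construct changed. Only 16 genes (0.0869%) were called in both with opposite signs. Across all genes the effects correlated with r = 0.42 (Spearman 0.35), a description over genes that are not independent; the effects share no arrays.

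The difference of effects was called for 261 genes, 143 higher (0.776%) and 118 lower (0.641%) with ΔNp53:WTp53. Of the 261, 90 were changed by ΔNp53:WTp53 alone of the 2 constructs, 129 by the tethered construct alone, 16 by both with opposite signs, 14 by both with the same sign, and 12 by neither. At least 2-fold, 17 were higher and 29 lower. In all 261 the 3 same-experiment differences of one set did not overlap the 3 of the other, which held for 26.9% of all genes tested. With the replicate block, which takes the experiment as a term, 666 genes were called, among them 247 of the 261. With it 806 genes were called for ΔNp53:WTp53 and 470 for both constructs alike, against 449 and 245. With second-set effects multiplied by 1.84 the count was 223, 44.4% of them higher in place of 54.8%, and 124 of the 261 passed; with arrays centred on their medians it was 314, of which 71% were higher. The count varied with single arrays. Without experiment 0, 4 or 5 it was 1878, 57 and 176, and without d, e or f it was 1, 12 and 8. Without ΔNp53:WTp53 of experiment 0, 4 or 5 alone it was 1113, 205 and 409. Without WTp53 of experiment 0, 4 or 5 it was 531, 99 and 83. It was 36, 74 and 110 without tethered WTp53 of d, e or f, and 43, 35 and 32 without WTp53 of d, e or f.

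**Figure D1:**
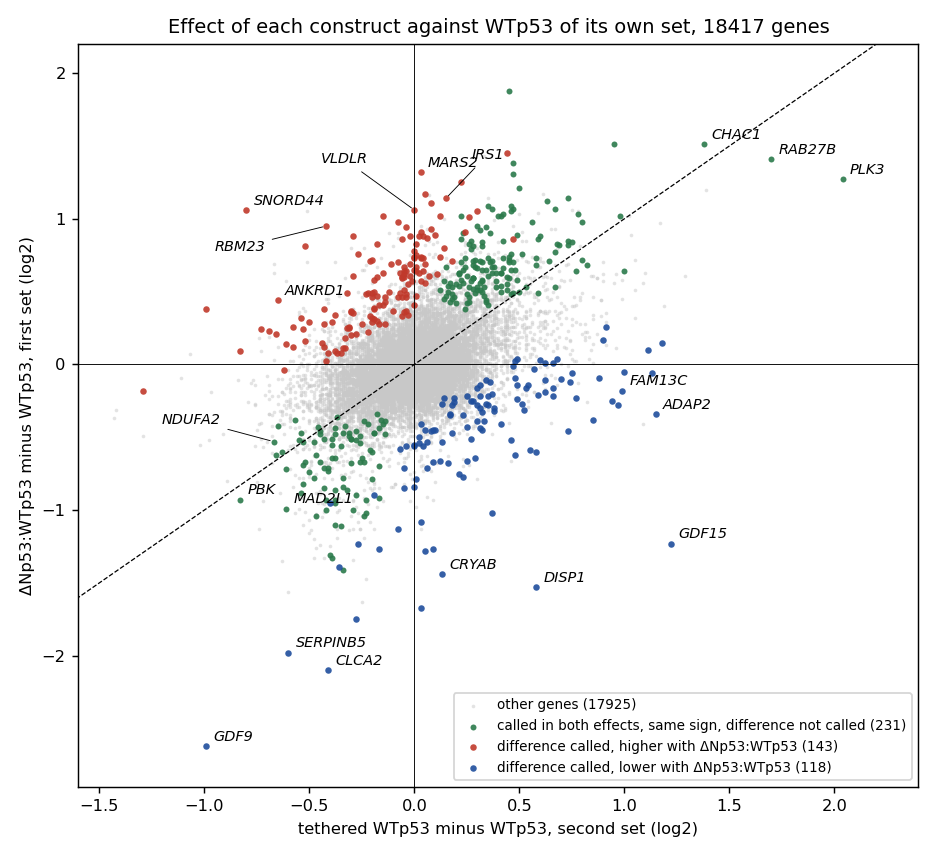
Effect of ΔNp53:WTp53 (vertical axis, log2, first set) against effect of tethered WTp53 (horizontal axis, log2, second set), 1 point per gene, with the line of equal effects dashed. Green genes, called alike in both effects and not in the difference, lie in the lower left and upper right; the 143 red and 118 blue genes are those called in the difference.

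The WTp53 arrays that serve as reference differed between the sets, and these values stand beside the genes called apart; their part in the result was not tested. The response to WTp53, first minus second set, was called higher for 1744 (9.47%) and lower for 1960 (10.6%). Of the 261 genes called in the difference of effects, 152 had a WTp53 response that differed between the sets in the opposite direction. Both values use the same WTp53 arrays with opposite signs, so an opposite direction is partly built in. Among the 118 genes lower with ΔNp53:WTp53 the median WTp53 response was 1.06 in the first set and 0.54 in the second, and among the 143 higher genes it was −0.50 and −0.12. When each construct was instead taken against the empty vector of its set, an alternative chosen after seeing the data, 224 genes were higher (1.22%) and 169 lower (0.918%) with ΔNp53:WTp53. These differences share the construct arrays with those against WTp53, so a common direction is partly built in. Of the 261, 201 kept their direction and 52 were called with the same sign against both references, 28 higher and 24 lower. In the opposite direction 1 was called, CYP27C1, with −0.68 against WTp53 and 1.30 against the vector (limma adjusted p = 0.00737). The 10 of these 52 with the largest difference were GDF15, CRYAB, BEND2, SERPINB5, MARS2, CCDC39, KSR1, IFFO2, SATL1 and ATL1. The value against the vector is given below for genes called in the difference.

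**Figure D2:**
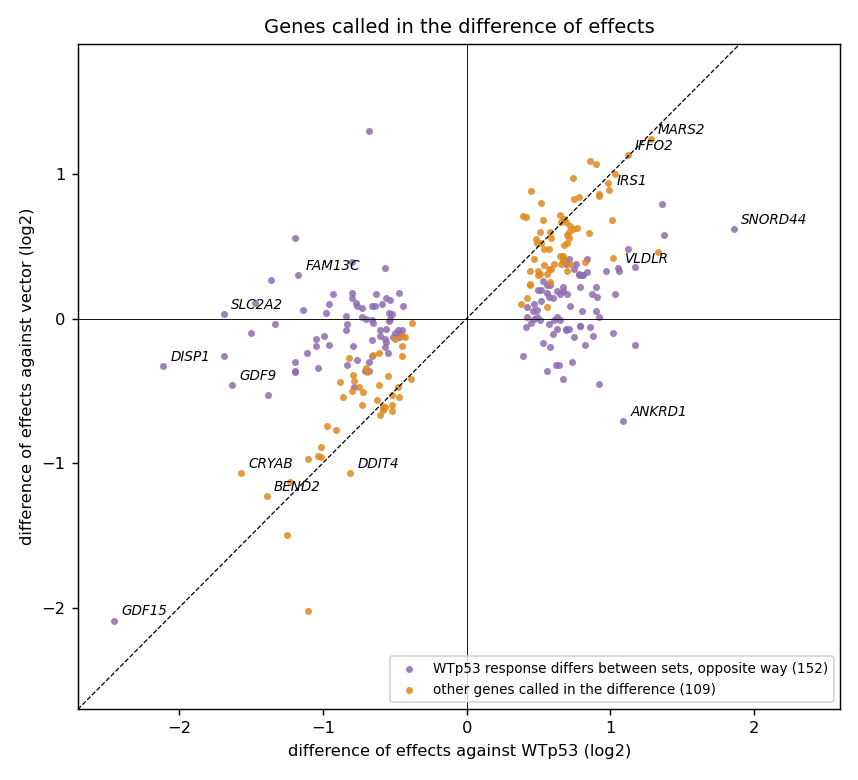
The 261 genes called in the difference of effects, with the difference taken against WTp53 (horizontal axis, log2) and against the empty vector of each set (vertical axis, log2), equality dashed. Purple marks the 152 genes whose WTp53 response differed between the sets in the opposite direction. The WTp53 arrays are shared, so that direction is partly built in. GDF15 lies near the dashed line (−2.45 and −2.09), whereas SLC2A2 lies near 0 on the vertical axis (0.03).

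The genes that both constructs raised most included a small GTPase, a glutathione-degrading enzyme and stress-responsive kinases. RAB27B, a GTPase of vesicle secretion, differed from WTp53 by 1.21, 1.44 and 1.57 in experiments 0, 4 and 5 and by 1.91, 1.55 and 1.64 in d, e and f. The ranges overlap, and both effects were called (1.41 ± 0.25, limma adjusted p = 0.0233; 1.70 ± 0.08, adjusted p = 1.09e-06). CHAC1 encodes an enzyme that degrades glutathione and is a target of the stress transcription factor ATF4. Its level was 8.51, 9.02 and 8.95 with ΔNp53:WTp53 against 7.42, 7.29 and 7.24 with WTp53, and 11.44, 11.41 and 11.34 with tethered WTp53 against 10.02, 10.04 and 9.98. All arrays of either construct lay above all WTp53 arrays of the same set. The effects were 2.85-fold and 2.61-fold, and their difference was 0.13 with a 95% interval of −0.22 to 0.47. With the second set rescaled that difference was −1.04. PLK3, a polo-like kinase of the stress response, rose with both (1.27 ± 0.21 and 2.04 ± 0.08), and its difference of −0.77 had a limma adjusted p of 0.199, against 0.0388 with the replicate block. ANGPTL4, a secreted inhibitor of lipoprotein lipase, had effects of 1.02 ± 0.15 and 0.98 ± 0.13. Its WTp53 response was −0.17 in the first set and 2.14 in the second, and against the vector the difference for ANGPTL4 was −2.28 (limma adjusted p = 0.00205). The kinase NUAK2 of the AMPK family (0.98 and 0.80), the ubiquitin ligase LNX2 (1.03 and 0.78), ZMYM5 (0.84 and 0.75) and TMEM229A (1.51 and 0.95) also rose with both. With the second set rescaled, RAB27B (−1.72, limma adjusted p = 0.00955) and PLK3 (−2.48, adjusted p = 0.0216) were called in the difference, with a smaller rise under ΔNp53:WTp53 on that scale.

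The promoter of CHAC1 is shown because a C/EBP-ATF element, the kind of site that ATF4 binds, is in it. The letters cover 250 bases before to 50 after the start in RefSeq (GRCh38.p14, chr15:40953221-40953520, plus strand), and the capitals mark TTGCATCA, the element TGATGNAA read on the other strand, whose first base is at −209 from the start.
CHAC1: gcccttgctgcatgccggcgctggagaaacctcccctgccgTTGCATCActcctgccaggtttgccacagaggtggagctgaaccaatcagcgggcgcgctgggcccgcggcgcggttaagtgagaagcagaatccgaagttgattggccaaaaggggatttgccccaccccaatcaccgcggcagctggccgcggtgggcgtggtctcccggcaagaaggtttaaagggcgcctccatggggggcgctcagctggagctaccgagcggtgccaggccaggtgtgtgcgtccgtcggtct
In windows of this length TGATGNAA, searched on both strands, is in 2.54% of the promoters of 14239 tested genes and in 1.53% of those of 131 genes that both constructs raised.

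Both constructs lowered 6 of 37 listed G2/M genes and 4 of 45 listed oxidative phosphorylation genes. These are among the 91 genes (0.494% of those tested) that fell with both. MAD2L1, a protein of the spindle checkpoint, stood at 7.74, 7.31 and 6.79 with ΔNp53:WTp53 and at 8.22, 8.36 and 8.24 with WTp53. In the second set it stood at 9.0, 9.02 and 9.04 with tethered WTp53 and at 9.69, 9.55 and 9.65 with WTp53. The groups did not overlap in either set, and the fall was larger in experiments 4 and 5 than in 0 (−1.05 and −1.45 against −0.48). The effects were −0.99 ± 0.19 and −0.61 ± 0.05, and their difference was −0.38 with a 95% interval of −0.92 to 0.15. PBK, a mitotic kinase, fell by 0.93 and 0.83, and CCNB2, the mitotic cyclin B2, by 0.69 and 0.53. SNRPF, a core protein of spliceosomal snRNPs, had effects of −0.62 ± 0.10 and −0.66 ± 0.04. NDUFA2, a subunit of respiratory complex I, was at 7.37, 7.33 and 7.12 with ΔNp53:WTp53 against 7.77, 7.76 and 7.87 with WTp53, and at 9.31, 9.28 and 9.55 with tethered WTp53 against 9.96, 10.07 and 10.12. It fell in every experiment of both sets, by a mean of 0.53 and 0.67. ARPC5L, a subunit of the actin-nucleating Arp2/3 complex (−0.60 and −0.63), DORIP1 (−0.72 and −0.61) and the long non-coding RNA gene DLEU2 (−0.88 and −0.54) fell as well. These 16 genes were named as the 8 rises and 8 falls with the largest value of the smaller effect, among genes called in both and not in the difference. Of the 245 genes moved alike, 81 had a 95% interval of the difference within 0.5 of 0, and 14 were called in the difference, with a larger effect of ΔNp53:WTp53. A p above the threshold does not show that the other effects were equal. Without experiment 0 the difference was called for MAD2L1 (−0.64, limma adjusted p = 0.0401) and DLEU2 (−0.46, adjusted p = 0.0168). It was also called for CHAC1 (0.34, adjusted p = 0.0323) and PLK3 (−0.60, adjusted p = 0.012), and not for the rest of these named genes.

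The promoter of CCNB2 is shown because it holds the CHR letters and CCAAT boxes: the capitals mark CCAAT boxes with first bases at −244, −120, −87 and −54 from the start and the CHR letters TTTGAA at −29 (RefSeq, GRCh38.p14, chr15:59104896-59105195, plus strand).
CCNB2: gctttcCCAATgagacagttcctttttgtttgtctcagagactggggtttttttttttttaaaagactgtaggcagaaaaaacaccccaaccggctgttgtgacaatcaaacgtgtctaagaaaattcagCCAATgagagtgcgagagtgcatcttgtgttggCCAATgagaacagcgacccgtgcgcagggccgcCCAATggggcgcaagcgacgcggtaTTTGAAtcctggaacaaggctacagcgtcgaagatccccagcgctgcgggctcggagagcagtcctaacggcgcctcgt
TTTGAA, on either strand, is in 14.7% of the promoters of 75 genes that both constructs lowered and in 11.9% of those of all 14239 genes, and CCAAT is in 41.3% and 36.3%.

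**Figure D3:**
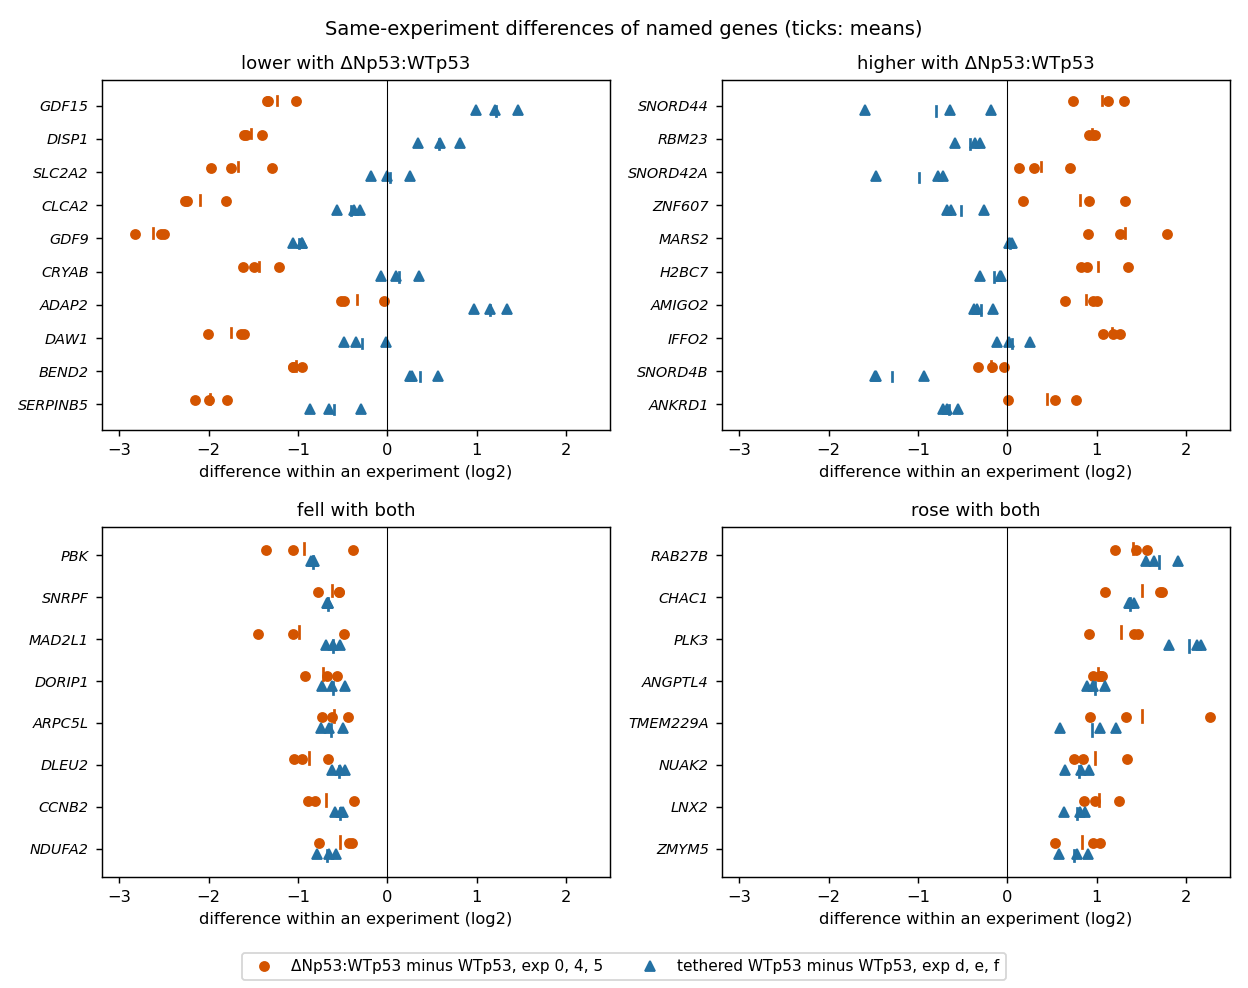
Construct minus WTp53 within each experiment (log2) for named genes, with circles for ΔNp53:WTp53 in experiments 0, 4 and 5, triangles for tethered WTp53 in d, e and f, and ticks for means. Upper-panel genes were chosen for circles and triangles that do not overlap, and lower-panel genes for effects called with the same sign in both sets. In the lower panels both lie on the same side of 0 for every gene.

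GDF15 moved apart most, with falls under ΔNp53:WTp53 and rises under the tethered construct. It encodes a secreted stress cytokine of the TGF-beta family and is a direct p53 target. In the first set its level was 8.15, 8.21 and 8.22 with WTp53 and 6.81, 6.86 and 7.21 with ΔNp53:WTp53, and in the second 10.08, 10.15 and 10.13 with WTp53 and 11.54, 11.36 and 11.12 with tethered WTp53. The groups did not overlap in either set, and every experiment of a set had the same sign. The effects were −1.23 ± 0.12 and 1.22 ± 0.09, and their difference of −2.45 ± 0.16 (limma adjusted p = 8.04e-05) was the largest of all called genes. GDF15 was the 1 gene among the 47 described here with a called difference that passed in all 28 alternatives. Against the vector the difference was −2.09 (adjusted p = 0.000746).

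BEND2 and CRYAB also differed against both references, at low levels with ΔNp53:WTp53. Those arrays had medians of 4.89, 4.93 and 4.95 and 25th percentiles of 3.25, 3.28 and 3.30. BEND2 lay near the 25th percentile there and CRYAB below the median. BEND2, a BEN domain gene, was at 4.57, 4.23 and 4.30 with WTp53 and 3.50, 3.27 and 3.25 with ΔNp53:WTp53, and at 6.55, 6.55 and 6.43 with WTp53 and 6.81, 6.83 and 7.0 with tethered WTp53. It thus fell with one construct and rose with the other (−1.02 ± 0.11 and 0.37 ± 0.07; difference −1.39 ± 0.14, limma adjusted p = 0.00207; −1.23 against the vector). CRYAB, the small heat shock protein alpha-B crystallin, was at 5.00, 5.32 and 5.47 with WTp53 and 3.79, 3.70 and 3.98 with ΔNp53:WTp53. With tethered WTp53 (7.26, 7.35 and 7.59) it overlapped WTp53 of the second set (7.16, 7.42 and 7.23), and the difference was −1.57 ± 0.18 (limma adjusted p = 0.00469; −1.07 against the vector).

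Other genes lower with ΔNp53:WTp53 had a larger WTp53 response in the first set. DISP1, which releases the ligand Sonic hedgehog from cells, had effects of −1.53 ± 0.24 and 0.58 ± 0.09, a difference of −2.11 (limma adjusted p = 0.0143) and one of −0.33 against the vector (adjusted p = 0.555). WTp53 raised DISP1 by 3.03 in the first set and by 1.25 in the second. SLC2A2, the glucose transporter GLUT2, fell by 1.67 with ΔNp53:WTp53 and differed by 0.03 with the tethered construct. WTp53 had raised SLC2A2 by 1.86 in the first set and by 0.13, which was not called, in the second, and the difference against the vector was 0.03. GDF9, a TGF-beta superfamily ligand known from the oocyte, was lowered by both constructs: 4.42, 4.61 and 4.60 with ΔNp53:WTp53 against 6.92, 7.43 and 7.13 with WTp53, and 7.12, 7.09 and 7.0 with tethered WTp53 against 8.07, 8.05 and 8.05. The fall was 6.15-fold and 1.98-fold, and the difference of −1.63 (limma adjusted p = 0.0013) was −0.80 with the second set rescaled (adjusted p = 0.109) and −0.46 against the vector. CLCA2, a p53-inducible membrane protein of epithelia, fell by 2.10 and 0.41, and SERPINB5, the serpin maspin, by 1.98 and 0.60. Their differences of −1.69 and −1.38 did not pass with the second set rescaled (adjusted p = 0.232 and 0.16). Against the vector the difference was −0.26 for CLCA2 (adjusted p = 0.68) and −0.53 for SERPINB5 (adjusted p = 0.0295). DAW1, an assembly factor of ciliary dynein, fell by 1.75 and 0.28, with a difference of −1.47 that also did not pass rescaled (adjusted p = 0.153) and 0.11 against the vector. ADAP2, an Arf GTPase-activating protein, differed by −0.52, −0.04 and −0.48 from WTp53 in the first set and rose by 1.34, 1.15 and 0.97 in the second. Its difference was −1.50 (adjusted p = 0.0213) and −0.10 against the vector.

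**Figure D4:**
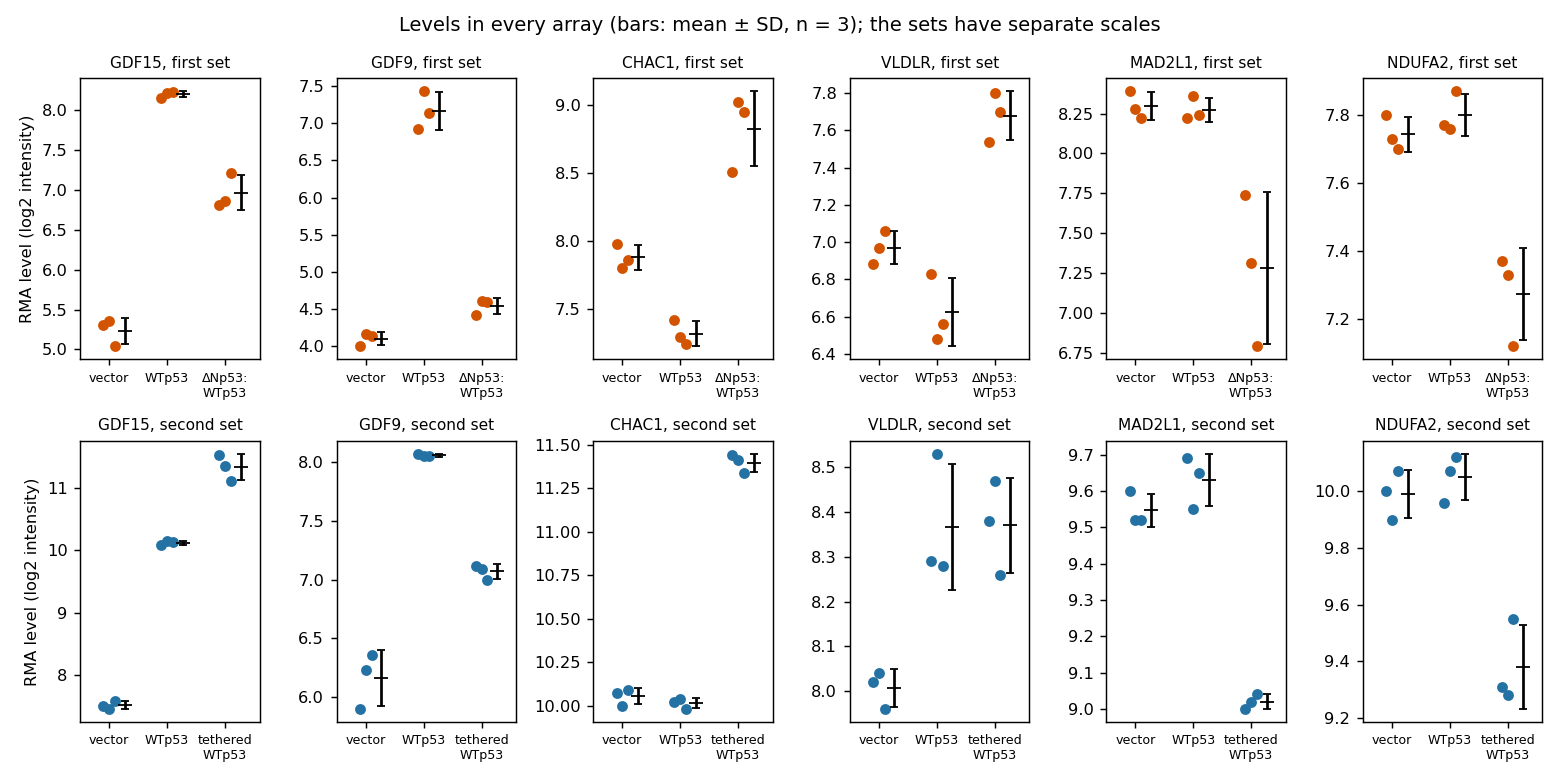
RMA level (log2 intensity) in every array of both sets for genes that moved apart (GDF15, GDF9, VLDLR) and alike (CHAC1, MAD2L1, NDUFA2), with mean ± SD of 3 arrays beside the points. Those alike were called with the same sign in both effects and not called in the difference. The sets have separate scales; GDF15 falls from WTp53 to ΔNp53:WTp53 (8.19 to 6.96) and rises from WTp53 to tethered WTp53 (10.12 to 11.34).

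In the difference of effects small nucleolar RNA genes were called higher and not lower. These and the zinc finger genes were grouped by symbol after the values were seen, so their counts are a description only. Of 514 zinc finger genes named ZNF or ZFP, 12 were higher and 6 lower, against 0.776% and 0.641% of all genes. The difference called 8 of 115 C/D box genes (SNORD) and 1 of 61 H/ACA genes (SNORA) higher and 0 lower. ΔNp53:WTp53 itself raised 3 and lowered 1 SNORD genes (median −0.03) and raised 1 and lowered 1 SNORA genes (0.01). The tethered construct lowered 38 SNORD genes (median −0.13) and 35 SNORA genes (−0.26) and raised 1 and 2. Over all genes it lowered 17.5% and raised 14.9%, and ΔNp53:WTp53 lowered 0.88% and raised 1.56%. SNORD44, a C/D box snoRNA, which guides methylation of ribosomal RNA, differed from WTp53 by 0.74, 1.31 and 1.13 in the first set and by −0.64, −0.18 and −1.59 in the second. The sets lie on opposite sides of 0, and the difference was 1.86 ± 0.32 (limma adjusted p = 0.0212; 0.62 against the vector). SNORD42A and SNORD4B, also C/D box snoRNAs, had differences of 1.36 and 1.12, in which the tethered effect was −0.99 and −1.29, and 0.79 and 0.48 against the vector. RBM23, an RNA-binding protein, rose by 0.92, 0.96 and 0.98 in experiments 0, 4 and 5 and differed by −0.58, −0.36 and −0.31 in d, e and f. Its difference was 1.37 ± 0.19 (limma adjusted p = 0.00986) and 0.58 against the vector (adjusted p = 0.0751). AMIGO2, a neuronal adhesion molecule, rose by 0.88 with ΔNp53:WTp53 and fell by 0.29 with the tethered construct. Its difference of 1.17 was −0.18 against the vector, and the WTp53 response of AMIGO2 was −1.19 in the first set and 0.16 in the second. ANKRD1, a target of the coactivator YAP, had a difference of 1.09 against WTp53 and of −0.71 against the vector, with WTp53 responses of −3.38 and −1.58. For the zinc finger gene ZNF607 (1.33) and the histone gene H2BC7 (1.17) the adjusted p was 0.0573 and 0.111 with the second set rescaled, and the difference against the vector was 0.46 and 0.36.

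MARS2 and IFFO2 were higher with ΔNp53:WTp53 by nearly the same amount against both references. MARS2, the mitochondrial methionyl-tRNA synthetase, differed from WTp53 by 0.90, 1.79 and 1.26 in the first set and by 0.05, 0.02 and 0.03 in the second. Its difference was 1.28 ± 0.25 (limma adjusted p = 0.0296) and 1.24 against the vector (adjusted p = 0.0266). IFFO2, an intermediate filament family gene, had effects of 1.17 ± 0.14 and 0.05 ± 0.08 and a difference of 1.12 (1.13 against the vector). Neither passed with the second set rescaled (adjusted p = 0.113 and 0.0718). IRS1, the adaptor of the insulin and IGF receptors, was at 5.79, 6.20 and 5.78 with ΔNp53:WTp53 against 4.72, 4.81 and 4.80 with WTp53, and at 7.26, 7.46 and 7.27 with tethered WTp53 against 7.16, 7.16 and 7.22. It rose with ΔNp53:WTp53 (1.14 ± 0.13), and its difference of 0.99 (limma adjusted p = 0.0126) was 0.89 against the vector (adjusted p = 0.0211) and did not pass rescaled (adjusted p = 0.0778). VLDLR, a lipoprotein receptor, was at 7.54, 7.80 and 7.70 with ΔNp53:WTp53 and 6.83, 6.48 and 6.56 with WTp53. In the second set tethered WTp53 (8.38, 8.47 and 8.26) overlapped WTp53 (8.29, 8.53 and 8.28). The difference was 1.05 ± 0.15 (limma adjusted p = 0.0115) and 0.35 against the vector.

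Of 27 arrest and feedback targets the tethered construct raised 11 and lowered 3, ΔNp53:WTp53 raised 1 and lowered 2, and the difference called 3 lower and 0 higher (limma; at an unadjusted p under 0.05, 8 and 1). Their median difference was −0.17 against −0.02 over all genes, and 24 of the 27 differences were below 0, as were 10001 of all 18417. Of all genes tested the tethered construct raised 14.9% and lowered 17.5%, and ΔNp53:WTp53 raised 1.56% and lowered 0.88%. The difference called 0.776% higher and 0.641% lower. With the replicate block 5 of the 27 were called lower. The 3 were GDF15, the phosphatase PPM1D, which switches off p53 signalling, and FBXW7, a ubiquitin ligase subunit. PPM1D differed from WTp53 by −0.38, −0.29 and −0.39 in the first set, which did not pass (limma adjusted p = 0.0528), and rose by 0.21, 0.20 and 0.27 in the second. Its difference was −0.58 ± 0.08, and −0.61 against the vector. FBXW7 fell with ΔNp53:WTp53 (−0.68 ± 0.10), and its difference of −0.84 was −0.08 against the vector. CDKN1A differed by −1.30, −0.82 and −0.66 in experiments 0, 4 and 5 and by 0.11, 0.10 and 0.07 in d, e and f. These ranges do not overlap, but the difference of −1.02 ± 0.23 did not pass (limma adjusted p = 0.0541); it did with the replicate block (adjusted p = 0.0139). MDM2, the ubiquitin ligase that degrades p53, had a difference of −0.48 ± 0.13 that did not pass either (adjusted p = 0.104). Against the vector the differences had the other sign, 0.47 for CDKN1A (limma adjusted p = 0.494) and 0.82 for MDM2 (adjusted p = 0.0383). MDM2 was thus called higher with ΔNp53:WTp53 on that reference.

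Of 22 apoptosis targets the tethered construct raised 10 and lowered 1, ΔNp53:WTp53 raised 0 and lowered 1 (limma; unadjusted 2 and 4), and the difference called AEN alone, lower. The median difference was −0.21, with 21 of 22 below 0, and with the replicate block 3 were called lower. Over all genes tested the tethered construct raised 14.9% and lowered 17.5%, and ΔNp53:WTp53 raised 1.56% and lowered 0.88%. The difference called 0.776% of all genes higher and 0.641% lower. AEN, a p53-induced nuclease of apoptosis, had a tethered effect of 0.31 ± 0.04 and a difference of −0.53 ± 0.11 (limma adjusted p = 0.0424) that did not pass with the replicate block (adjusted p = 0.056) and was 0.00 against the vector. Of 21 repair and metabolism targets the tethered construct raised 8 and lowered 2, ΔNp53:WTp53 raised 0 and lowered 1, and the difference called 3 lower and 0 higher (unadjusted 5 and 1), with a median of −0.18. DDB2 and XPC recognize damaged DNA in nucleotide excision repair. DDB2 rose with the tethered construct (0.49 ± 0.06), with a difference of −0.62 ± 0.10 (limma adjusted p = 0.0187; −0.56 against the vector, adjusted p = 0.0266), and XPC had a difference of −0.39 (−0.42 against the vector, adjusted p = 0.0696). RRM2B, the p53-induced ribonucleotide reductase subunit, fell with ΔNp53:WTp53 (−0.55 ± 0.09) and differed by 0.00 with the tethered construct. Against the vector the difference of RRM2B was −0.24. Of 22 targets of the p53 family in epithelia, a list chosen with results of these data known, the tethered construct raised 14 and lowered 2 and ΔNp53:WTp53 lowered 2, CLCA2 and SERPINB5. The difference called these and FAM13C lower, and 8 genes with the replicate block. FAM13C rose with the tethered construct (0.99 ± 0.06), and its difference of −1.17 ± 0.15 was 0.30 against the vector. Against the vector the medians of ΔNp53:WTp53 and the tethered construct were 0.85 and 1.29 for arrest and 1.04 and 0.90 for apoptosis. They were 0.79 and 0.88 for repair and 2.06 and 1.60 for the epithelial list. The median WTp53 response in the first and second sets was 1.17 and 0.98 for arrest and 1.28 and 0.76 for apoptosis. It was 0.85 and 0.81 for repair and 2.32 and 1.47 for the epithelial list. The WTp53 response thus differed between the sets to an extent that varied by list, so the medians against the vector do not rank the constructs. Over the 3 lists of general p53 targets the medians within experiment 0 (−0.23, −0.19 and −0.14) were lower than in experiments 4 and 5.

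The promoter of AEN is shown as that of a p53 target in the difference with a p53 half-site in the window: the capitals begin at −34 from the start (RefSeq, GRCh38.p14, chr15:88621090-88621389, plus strand).
AEN: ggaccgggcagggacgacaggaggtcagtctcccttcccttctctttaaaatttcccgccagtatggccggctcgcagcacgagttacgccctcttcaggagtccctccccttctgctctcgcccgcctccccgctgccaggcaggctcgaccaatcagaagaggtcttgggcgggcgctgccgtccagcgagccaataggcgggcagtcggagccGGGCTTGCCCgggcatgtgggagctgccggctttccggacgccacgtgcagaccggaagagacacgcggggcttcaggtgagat
A p53 half-site, searched on both strands by its usual consensus, is in 12.4% of the promoters of 97 genes lower and 8.04% of those of 112 genes higher with ΔNp53:WTp53, and in 5.94% of all 14239. It is in 3.82% of those raised and 2.67% of those lowered by both constructs.

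**Figure D5:**
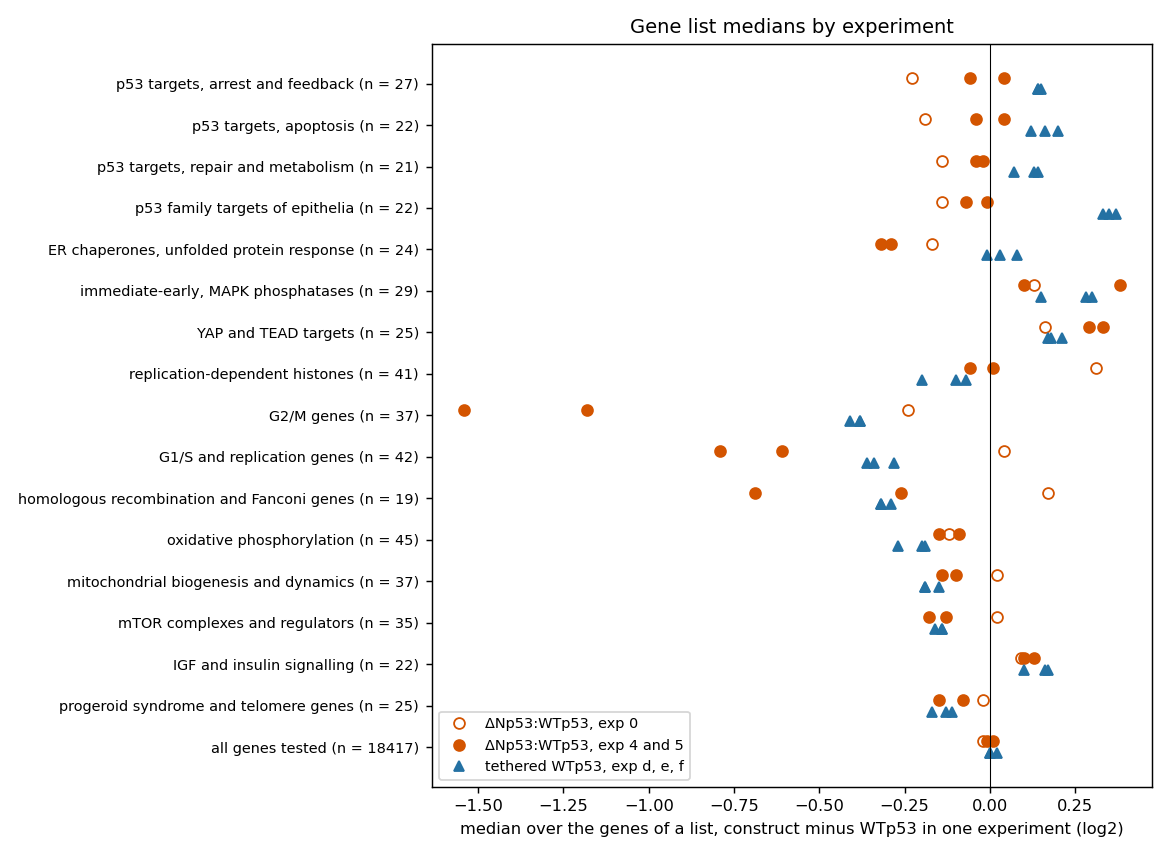
Median over the genes of a list of construct minus WTp53 within each experiment (log2), with circles for ΔNp53:WTp53 (open for experiment 0) and triangles for tethered WTp53. The p53 target lists lie above 0 in all 3 tethered experiments; the G2/M list lies below 0 in all 6, at −0.24 in experiment 0 and −1.18 and −1.54 in experiments 4 and 5.

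Of 37 G2/M genes the tethered construct lowered 34 and ΔNp53:WTp53 lowered 6, against 17.5% and 0.88% of all genes tested. The 6 were CCNB2, MAD2L1, the kinases AURKA and NEK2, the mitotic kinesin KIF20A and survivin, encoded by BIRC5. AURKA differed by −0.60, −1.43 and −1.90 in experiments 0, 4 and 5 and by −0.42, −0.38 and −0.41 in d, e and f. A second probe set of BIRC5 gave a ΔNp53:WTp53 effect of −0.25 in place of −0.93, and a difference of 0.19 in place of −0.51. With the replicate block ΔNp53:WTp53 lowered 19 of the 37, with all 18 arrays in one fit 28, and with 6 arrays per effect 0. Without experiment 0 it lowered 33, and without 4 or 5 it lowered 0. The list median was −0.99 with ΔNp53:WTp53 and −0.38 with the tethered construct, and 0 genes were called in the difference by limma (6 lower at an unadjusted p under 0.05). Without experiment 0 the difference called 31 of the 37 lower and 1 higher, with a median of −1.03, among 928 lower and 950 higher genes in all. Without experiment 4 or 5, 1 and 0 genes in all were called for ΔNp53:WTp53 (1248 and 1772 at an unadjusted p under 0.05). Of 42 G1/S and replication genes the tethered construct lowered 37 and raised 1 and ΔNp53:WTp53 changed 0 (unadjusted 16 lower). Their median was −0.44 and −0.34, and 0 were called in the difference (unadjusted 0). In experiment 0 the G1/S median was 0.04, against −0.61 and −0.79 in 4 and 5. Without experiment 0, 11 were lower and 1 higher. The cyclin gene CCNA2 differed by −0.23, −0.83 and −1.15 in experiments 0, 4 and 5 and by −0.30, −0.32 and −0.27 in d, e and f. Of 19 homologous recombination and Fanconi genes the tethered construct lowered 14 and ΔNp53:WTp53 changed 0 (limma; unadjusted 2 up and 2 down), with medians of 0.17, −0.26 and −0.69 in experiments 0, 4 and 5. Of 41 replication-dependent histone genes the tethered construct lowered 14 and raised 1, and ΔNp53:WTp53 raised 2. The difference called H2BC7 and H2AC13 higher (6 histone genes with the replicate block). Over all genes ΔNp53:WTp53 raised 1.56%, and the difference called 0.776% higher.

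The title of the series names mitochondria, the mTOR pathway and progeroid change. Over all genes tested the tethered construct lowered 17.5% and raised 14.9%, and ΔNp53:WTp53 lowered 0.88% and raised 1.56%. The difference called 0.776% higher and 0.641% lower. Of 45 oxidative phosphorylation genes the tethered construct lowered 32 and raised 2, and ΔNp53:WTp53 lowered 4, the complex I subunits NDUFA2, NDUFB3 and NDUFB6 and UQCRQ of complex III, which all fell with the tethered construct too. NDUFB3 had effects of −0.52 and −0.55 and a difference of 0.03 with a 95% interval of −0.23 to 0.28. The list medians were −0.13 and −0.22, in experiments 0, 4 and 5 −0.12, −0.15 and −0.09 and in d, e and f −0.20, −0.27 and −0.19, and 0 genes were called in the difference (limma; unadjusted 7 higher and 1 lower). Of 37 genes of mitochondrial biogenesis and dynamics the tethered construct lowered 24 and raised 1, and ΔNp53:WTp53 lowered TFAM, which packages and transcribes mitochondrial DNA, and MFN2, a mitofusin. TFAM was lower in each of the 6 experiments (−0.40, −0.56 and −0.61, then −0.54, −0.53 and −0.51), with a difference of 0.00 (95% interval −0.27 to 0.27). Of 35 mTOR genes the tethered construct lowered 19 and raised 4, and ΔNp53:WTp53 lowered 1, LAMTOR2 of the lysosomal Ragulator complex (−0.44 ± 0.09; tethered −0.17 ± 0.04). The difference called DDIT4 and PRKAB1 lower. DDIT4, the stress-induced mTORC1 inhibitor REDD1, rose with the tethered construct by 0.83, 0.63 and 0.40 and differed by −0.21, 0.03 and −0.39 with ΔNp53:WTp53 (difference −0.81 ± 0.15; −1.07 against the vector, limma adjusted p = 0.0571). PRKAB1, a regulatory subunit of AMPK, had a difference of −0.48 (−0.47 against the vector, adjusted p = 0.0284). Of 22 IGF and insulin signalling genes the difference called IRS1 and AKT2 (0.26 against the vector) higher and 0 lower (unadjusted 2). Of 25 progeroid syndrome and telomere genes the tethered construct lowered 14 and raised 1, ΔNp53:WTp53 changed 0 (unadjusted 5 lower), and the difference called 0 (unadjusted 1 higher).

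Chaperone and signalling genes held most of the remaining named differences. Beside the counts below, ΔNp53:WTp53 raised 1.56% and lowered 0.88% of all genes, and the tethered construct 14.9% and 17.5%. The difference called 0.776% of all genes higher and 0.641% lower. Of 24 endoplasmic reticulum chaperone and unfolded protein genes ΔNp53:WTp53 lowered 3 and raised 0 (unadjusted 12 and 1), the tethered construct raised 5 and lowered 2, and the difference called HYOU1, PDIA4 and HSP90B1 lower, with a list median of −0.28. HYOU1, a chaperone related to HSP70, fell by 0.56, 0.70 and 0.98 in the first set and rose by 0.18, 0.17 and 0.29 in the second, with a difference of −0.96 (limma adjusted p = 0.0196) and of −0.18 against the vector. For PDIA4, a protein disulfide isomerase, and HSP90B1, the chaperone GRP94, the differences of −0.66 and −0.68 were 0.09 and −0.30 against the vector. Without experiment 0, 10 genes of this list were lower and 2 higher. Of 34 genes of amino acid supply and the integrated stress response, ΔNp53:WTp53 raised CHAC1 and VLDLR, and the tethered construct raised 6 and lowered 5. Of 29 immediate-early and MAP kinase phosphatase genes ΔNp53:WTp53 raised 4 and the tethered construct raised 16 and lowered 2. JUNB, an AP-1 subunit, rose with both (0.64 ± 0.12 and 1.0 ± 0.04), as did SPRY4, an inhibitor of receptor tyrosine kinase signalling (0.53 and 0.33). DUSP6, the phosphatase of ERK, rose only with ΔNp53:WTp53 among the 2 constructs (0.57 ± 0.10; tethered −0.01 ± 0.04), with a difference of 0.58 that was −0.20 against the vector. SPRED1, an inhibitor of RAS signalling, rose with ΔNp53:WTp53 (0.60) and fell with the tethered construct (−0.18), and its difference was 0.30 against the vector. Of 24 Notch pathway genes the difference called HES1, a transcriptional repressor, higher (0.92 ± 0.17, limma adjusted p = 0.0276; 0.86 against the vector, adjusted p = 0.0744). Of 25 YAP and TEAD targets ΔNp53:WTp53 raised AMOTL2, GADD45B and NUAK2, the tethered construct raised 16 and lowered 3, and the difference called ANKRD1. ACTA2, smooth muscle actin, in the list of fibroblast and endothelial markers, had effects of −0.59 and 0.55 and a difference of −1.14 (limma adjusted p = 0.0209) that was 0.06 against the vector (adjusted p = 0.886).

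Genes that WTp53 itself changed were followed into the other set, where the effect shares no array with the choice. The 2-fold threshold lies on scales that differ between the sets, so the choices are not alike. The median standard error was 0.06 for tethered effects and 0.11 for ΔNp53:WTp53 effects, so counts called are not comparable between the constructs. The 741 genes that rose at least 2-fold with WTp53 in the first set rose further with the tethered construct: 517 were called higher and 20 lower, 90.6% of their effects were above 0 against 54.7% of all genes, and their median was 0.32. The 307 genes that rose at least 2-fold with WTp53 in the second set had a median of 0.01 with ΔNp53:WTp53, with 5 called higher and 19 lower and 52.1% above 0 against 46.4% of all genes. Within experiments 0, 4 and 5 that median was −0.10, 0.09 and 0.03. The 61 genes that fell at least 2-fold with WTp53 in the second set had a median of 0.35 with ΔNp53:WTp53, 85.2% of them above 0, with 4 called higher and 0 lower. The 555 genes that fell at least 2-fold in the first set had a median of −0.11 with the tethered construct, with 221 called lower and 55 higher.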

How the data were processed

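RNA of NCI-H1299 cells was measured on Affymetrix Gene arrays in 18 samples, and the comparison used 12 of them. The deposited values are log2 intensities that the authors normalized with RMA in Affymetrix Expression Console, per the submitters' processing notes, which give no versions; each set was normalized apart. The number of arrays limits the precision. Of 33297 probe sets, 19460 had 1 gene symbol, 1754 had several and 12083 were unlisted. For 769 genes with several probe sets, the one with the highest mean was used, which left 18417 genes. The transfected gene's own values are not reported here.

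The difference of effects was fitted with limma 3.58.1 (R 4.3.3) on the 12 arrays with 8 residual degrees of freedom. Each effect was fitted on the 9 arrays of its set with 6. P-values were adjusted by Benjamini-Hochberg over all genes at 0.05. An exact test of 3 against 3 arrays cannot go under 0.1. Named genes were CDKN1A and MDM2, the 10 largest differences in each direction without overlap, the 8 rises and 8 falls moved alike with the largest smaller effect, the 5 largest of each orientation with opposite signs, and up to 4 genes per list with the smallest p. AMOTL2, ATL1, CCDC39, DCAF4, GADD45B, KANK3, KSR1, LAMTOR2, NDUFB3, NDUFB6, RASSF4, SATL1, SPRY4, TFAM, UQCRQ and USP38 fall outside this rule and were chosen after their values were seen. Members and lists were chosen with earlier results of these data known. Of 799 listed members in 28 lists, 743 were measured. In the first set all 9 correlations of residuals between arrays of 1 experiment were above 0.1 (0.11 to 0.57). They were 0.28, 0.57 and 0.37 for experiment 0, against at most −0.20, −0.33 and −0.20 with another experiment. For experiment 4 they were 0.20, 0.31 and 0.21, against up to 0.20, 0.35 and 0.15. For experiment 5 they were 0.11, 0.29 and 0.15, against up to 0.14, 0.20 and 0.23. The labels thus set experiment 0 apart but did not clearly pair arrays of 4 and 5. In the second set the correlations were −0.04 to 0.13, with 2 of 9 above 0.1. The fits were tested on simulated data. Promoters came from RefSeq (GRCh38.p14).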

Additional observations from a re-analysis of the deposited data

Results flagged for a closer look

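In 16 genes the effects of the constructs were called with opposite signs and the difference itself passed in limma. In 15 of them every experiment had the sign of its set, and SPRED1 had 0.01 in experiment d against −0.30 and −0.24 in e and f. Lower with ΔNp53:WTp53 were GDF15 (−2.45), DISP1 (−2.11), BEND2 (−1.39), HYOU1 (−0.96), CHRND (−0.93), RASSF4 (−0.91), SEMA3B (−0.76) and KANK3 (−0.65), on the log2 scale. Higher were SNORD44 (1.86), RBM23 (1.37), AMIGO2 (1.17), USP38 (0.92), ZNF780B (0.90), SPRED1 (0.78), DCAF4 (0.76) and JKAMP (0.71). Among the 8 lower genes, CHRND is a subunit of the muscle acetylcholine receptor and SEMA3B a secreted semaphorin that p53 induces. SEMA3B had effects of −0.45 and 0.32, and USP38, a deubiquitinase, had effects of 0.71 and −0.21. Of these 16, GDF15, BEND2, RASSF4 and USP38 were also called with the same sign against the vector.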

How the results depend on the processing

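Over the settings with WTp53 as reference, the difference kept its sign in all 47 named genes called in it. It changed sign in 16 of 37 named genes not called (CHAC1 from −1.04 to 0.34, for example), and no value of the other sign passed (0 called). Against the vector, chosen after seeing the data, 201 of the 261 called genes kept their sign, with the construct arrays shared between both differences. On that reference 1 of the 261, CYP27C1, was called with the other sign. Of 47 named genes called in the difference, 1 (GDF15) passed in every alternative and 46 failed in some; of 37 not called, 17 passed in some. The main counts were 261 in the difference, 449 for ΔNp53:WTp53, 5970 for the tethered construct, 245 alike and 16 opposite. With all 18 arrays in one fit they were 544, 2693, 1855, 633 and 32. With 6 arrays per effect they were 96 for ΔNp53:WTp53, 47 alike and 3 opposite. The replicate block gave 666 in the difference, 806 for ΔNp53:WTp53, 470 alike and 38 opposite. Blocking the first set only, chosen after seeing the data, gave 1425, 806, 465 and 39. Array weights gave 10 opposite. A fold of at least 1.5 gave 270 for ΔNp53:WTp53, 337 for the tethered construct, 30 alike and 2 opposite. Leaving out 1 array or experiment gave 1 to 1878 in the difference, 0 to 2461 for ΔNp53:WTp53, 3236 to 5970 for the tethered construct, 0 to 1479 alike and 0 to 97 opposite. The cause was not tested. With 3 arrays per group, genes of small effect in the first set are not resolved: the median standard error of the difference was 0.13.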
